A study of Rattus norvegicus with 9 samples.

Results

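The cytosolic ribosomal protein genes of INS-1E cells, an insulin-secreting beta cell line from a rat insulinoma, were taken as the entries that the deposited table assigns to the KEGG ribosome pathway and whose symbols begin with Rpl (large, 60S subunit) or Rps (small, 40S subunit). The rule gave 84 of the 20645 entries, 49 of the 60S and 35 of the 40S subunit. They carry 80 symbols, because 4 symbols stand on 2 entries each. Of the 84 entries, 81 passed the filter for testing, a mean FPKM (fragments per gene, corrected for gene length and sequencing depth) of at least 1 over the 9 libraries; Rpl39l, Rpl3l and Rps10l1 did not. The cells were treated for 24 h with fatty acid-free bovine serum albumin (BSA, the control), with palmitic acid (PA), or with PA together with cyanidin-3-O-glucoside (C3G), an anthocyanin. The study's methods give 50 µM C3G for the RNA samples and 0.5 mM PA in other assays of the same cells. Each group had 3 libraries. No group received C3G without PA, so that a difference between PA+C3G and PA is a difference in the presence of PA. The study's methods speak of biological replication for its experiments in general, but neither they nor the labels tie the RNA replicates to separate cultures, so that the p-values measure the spread between these samples, which may in part be technical. All cells were of a single tumour-derived line, not of islets.

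A cytosolic ribosome is built from ribosomal RNA and, as a rule, a single copy of each ribosomal protein, and cells make these proteins in balanced amounts. In vertebrates most ribosomal protein mRNAs begin with a cytosine followed by an uninterrupted run of pyrimidines, the 5′ terminal oligopyrimidine (TOP) motif, through which the kinase complex mTORC1 and the RNA-binding protein LARP1 control their translation and stability. In beta cells the ribosome carries the load of proinsulin synthesis.

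The bases around the transcription start are shown for 10 of the genes to let the TOP motif be seen where it is present and absent, among them the gene with the highest FPKM, 5 that rose with PA and 4 that did not pass the test with PA. Each run is read 5′ to 3′ on the strand of the gene from RefSeq (GRCr8), holds 30 bases with the annotated start at base 16, and has its longest run of C and T in capitals.
Rplp0 (chr12:46718376-46718405, minus strand): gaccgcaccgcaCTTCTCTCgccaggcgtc
Rpl10 (chrX:157205835-157205864, plus strand): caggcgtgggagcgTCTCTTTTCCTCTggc
Rps27 (chr2:177964592-177964621, minus strand): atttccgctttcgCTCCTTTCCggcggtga
Rpl12 (chr3:36661925-36661954, plus strand): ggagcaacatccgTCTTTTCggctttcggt
Rpl4 (chr8:73566462-73566491, plus strand): taagTTCTTCCTTTTCCTgtgggagcagcc
Rpl24 (chr11:58128391-58128420, minus strand): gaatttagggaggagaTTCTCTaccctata
Rpl10a (chr20:6390518-6390547, plus strand): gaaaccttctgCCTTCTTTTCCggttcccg
Rps24 (chr16:96502-96531, plus strand): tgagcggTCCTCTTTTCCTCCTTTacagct
Rps2 (chr10:14251833-14251862, plus strand): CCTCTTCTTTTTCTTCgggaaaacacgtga
Rps27l (chr8:76443643-76443672, plus strand): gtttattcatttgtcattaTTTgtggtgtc
The table of RefSeq start regions gave a single match by symbol and chromosome for 51 of the 84 entries. A C at the annotated start followed by 4 bases that were each C or T, read on the strand of the gene, was found in 16 of these 51 (31.4%) and in 2.63% of all 33469 start regions of the same length. With a start allowed up to 5 bases to either side, 28 of the 51 (54.9%) and 17.0% of all regions held it. In the 300 bases from 250 before to 50 after the start, CCGGAA on either strand was present in 45.1% of the genes and 15.0% of all regions, GGGCGG on either strand in 58.8% and 33.1%, and TATAAA on either strand in 11.8% and 14.2%. A match is a description of these letters, and annotated starts can lie off the starts that the cells use. Among the tested genes the median log2 fold change with PA was 0.37 both for the 16 with the motif at the annotated start and for the 34 without it. For PA+C3G against PA the medians were -0.25 and -0.26. With a start up to 5 bases away allowed, the medians with PA were 0.34 for 28 genes with the motif and 0.38 for 22 without. In PA+C3G against PA they were -0.24 and -0.30. A part of the motif in these values was not tested. The genes that stayed near the control level with PA stood on both sides, Rpl10a with a long pyrimidine run across its start and Rps27l with none.

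The libraries held 45559993 to 66730721 estimated counts each, and within a group they correlated at 0.981 to 0.985 across genes. Among markers of the beta cell, Ins1 had 27615, 24631 and 27703 FPKM in the BSA libraries and all 11 of the list passed the filter, whereas the acinar genes Cela1 and Cpa1 and the fibroblast genes Col1a1 and Col3a1 were below 0.1 FPKM in every library; Sst, Ppy and Prss1 were not matched by symbol. Pdgfra, a further fibroblast marker, was at 2.02, 2.51 and 2.60 FPKM with BSA, 3.22, 3.52 and 3.05 with PA and 2.63, 2.56 and 2.79 with PA+C3G, and its log2 fold change was 0.48 ± 0.11 with PA (adjusted p = 0.00418) and -0.26 ± 0.11 in PA+C3G against PA (adjusted p = 0.123). Gcg, the glucagon gene of alpha cells, had 31.2, 8.28 and 22.1 FPKM with BSA, 6.02, 1.35 and 3.35 with PA and 22.5, 4.17 and 13.2 with PA+C3G. It fell with PA (-2.50 ± 0.71, adjusted p = 0.0149), and PA+C3G against PA gave 1.93 ± 0.70 (adjusted p = 0.0814). The part of these markers in the results below was not tested. Of the 11 beta cell markers, 8 were lower with PA and 10 were higher with C3G added (edgeR, adjusted p under 0.05). The median log2 fold change of all 12958 tested genes was 0.00, 0.00 and 0.01 in PA against BSA, PA+C3G against PA, and PA+C3G against BSA.

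With PA, the ribosomal protein genes took a larger part of the measured transcripts, and with PA+C3G their part stood near that of the control. Their summed FPKM made up 5.42%, 5.88% and 5.68% of all FPKM in the BSA libraries, 7.11%, 7.47% and 7.55% in the PA libraries and 5.82%, 5.99% and 5.78% in the PA+C3G libraries. The PA libraries lay above all others, and the BSA and PA+C3G libraries overlapped. The group means were 5.66% ± 0.233, 7.38% ± 0.231 and 5.86% ± 0.109 (SD, n = 3). With 3 libraries against 3, an exact permutation test cannot go below 0.10, so that no p is given for these shares. The share of FPKM held by Ins1 and Ins2 moved the other way, from 7.55% ± 0.159 with BSA to 3.03% ± 0.102 with PA and 7.30% ± 0.526 with PA+C3G. With these 2 genes left out of the total, the ribosomal protein share was 6.12% ± 0.242, 7.61% ± 0.233 and 6.32% ± 0.106, and the PA libraries again lay above the rest. The ratio of summed Rpl to summed Rps FPKM was 1.61 ± 0.0189, 1.65 ± 0.0284 and 1.65 ± 0.0158, close between the groups. These are bulk, scaled libraries, in which fewer cells of a type and less RNA per cell cannot be told apart and the RNA content of a cell was not measured.

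**Figure D1:**
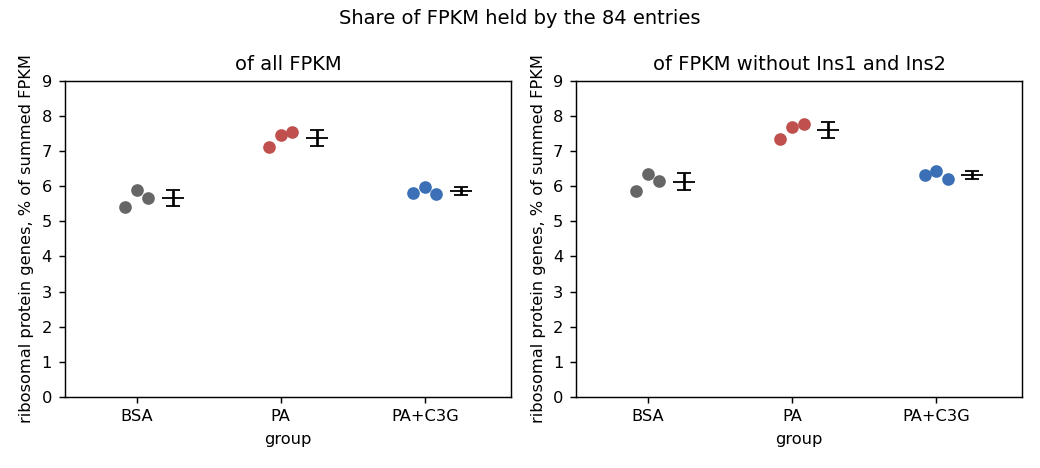
Percent of summed FPKM held by the 84 ribosomal protein entries (y axis) in each library of the 3 groups (x axis), of all FPKM on the left and with Ins1 and Ins2 left out on the right; points are libraries, and bars beside them the mean ± SD of 3. The 3 PA libraries, at 7.11% to 7.55% on the left, lie above all 6 others.

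In PA against BSA, which asks what the fatty acid does to these mRNAs, 64 of the 81 tested entries rose and none fell (edgeR quasi-likelihood test, adjusted p under 0.05 over all 12958 genes). Of all tested genes 25.8% were called higher and 25.2% lower, against 79.0% and 0 of the ribosomal protein entries. The 64 rises were small, from 0.14 to 0.70 on the log2 scale, and the median over the 81 was 0.37, or 1.29-fold. Over all tested genes, calls reached an unadjusted p of 0.0255. At an unadjusted p under 0.05, 65 entries were higher and none lower, and at an adjusted p under 0.01, 58 were higher. DESeq2 and limma also called none lower. None of the 81 passed a fold change of 2 with p under 0.05, which 7.56% of all genes did. The FPKM of the PA libraries lay above all BSA libraries for 65 entries (28.0% of all genes). Of the 60S entries 41 of 47 rose, with a median of 0.38, and of the 40S entries 23 of 34, with a median of 0.34.

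**Figure D2:**
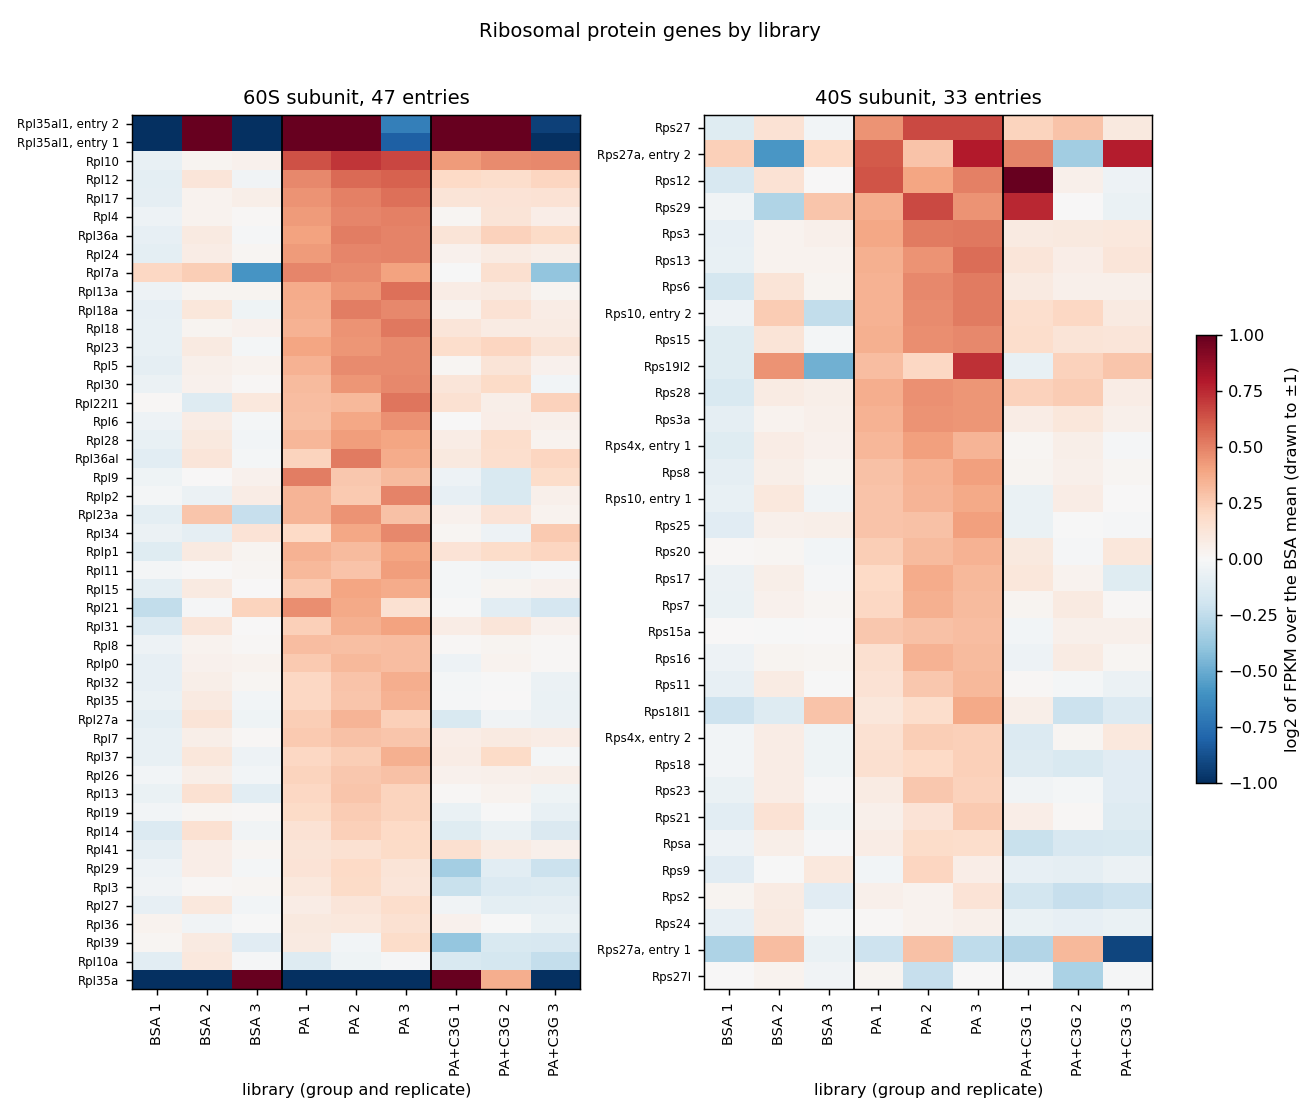
Colour gives log2 of the FPKM over the mean of the BSA libraries, drawn to ±1, for the 47 tested 60S entries (left) and 33 of the tested 40S entries (right), in rows ordered by their log2 fold change in PA against BSA, in the 9 libraries (columns); entry 1 and entry 2 mark symbols on 2 entries. Most rows are red in the PA columns, near white in BSA and PA+C3G, and a few rows, such as Rpl35a and the Rpl35al1 entries, vary within groups.

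Among the 60S genes, Rpl10 (ENSRNOG00000056765), whose protein is among the last to join the subunit and sits close to the peptidyl transferase centre, had the lowest p with PA. Its FPKM were 824, 882 and 892 in the BSA libraries, 1349, 1423 and 1378 in the PA libraries and 1165, 1201 and 1208 in the PA+C3G libraries. The 3 groups did not overlap, with PA highest and PA+C3G between PA and BSA. The log2 fold change was 0.70 ± 0.04 (SE) for PA against BSA (adjusted p = 6.45e-07) and -0.18 ± 0.04 for PA+C3G against PA (adjusted p = 0.0126).

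The 3 genes of the stalk, the arm of the 60S subunit that receives the elongation factors, all rose with PA. Rplp0 (ENSRNOG00000001148), the base of the stalk and the entry with the highest mean FPKM of the set (1500), stood at 1317, 1433 and 1430 with BSA, 1670, 1744 and 1723 with PA and 1344, 1427 and 1408 with PA+C3G. Only the PA libraries stood apart, and the log2 fold change was 0.32 ± 0.04 (adjusted p = 1.57e-04) with PA and -0.26 ± 0.04 (adjusted p = 0.00284) in PA+C3G against PA. Rplp1, one of the acidic proteins of the stalk, had 383, 441 and 422 FPKM with BSA, 527, 517 and 546 with PA and 456, 472 and 482 with PA+C3G. Its groups did not overlap either. Its rise with PA was 0.38 ± 0.05 (adjusted p = 2.18e-04), while the difference between PA+C3G and PA, -0.14 ± 0.05, did not pass the test (adjusted p = 0.0934); it passed with TPM scaling, with limma, in a fit of these 2 groups alone and without BSA replicate 1. Rplp2, its partner, had 95.9, 93.0 and 102 FPKM with BSA, 123, 117 and 137 with PA and 91.9, 87.3 and 101 with PA+C3G, so that the last overlapped the control. It rose by 0.39 ± 0.07 with PA (adjusted p = 0.00159) and its log2 fold change in PA+C3G against PA was -0.39 ± 0.07 (adjusted p = 0.00611).

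Rpl5 and Rpl11 encode the proteins that bind 5S ribosomal RNA and, when free of the ribosome, the p53 regulator Mdm2. Rpl5 had 647, 713 and 703 FPKM with BSA, 876, 954 and 957 with PA and 699, 752 and 707 with PA+C3G. Rpl11 was lower in level per length at 43.0, 43.9 and 44.3, 54.7, 53.3 and 58.6 and 43.2, 42.7 and 43.4 FPKM. For both genes the PA libraries were above all others and the other groups overlapped. Rpl5 rose by 0.46 ± 0.05 on the log2 scale with PA (adjusted p = 6.17e-05) and Rpl11 by 0.37 ± 0.04 (adjusted p = 3.18e-05). In PA+C3G against PA the log2 fold changes were -0.33 ± 0.05 (adjusted p = 0.0025) and -0.33 ± 0.04 (adjusted p = 5.56e-04). Rpl26, whose protein binds the mRNA of p53, had 351, 373 and 351 FPKM with BSA, 417, 432 and 439 with PA and 368, 370 and 372 with PA+C3G. It was called in both, at 0.29 and -0.18.

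Of the proteins at the exit tunnel and the subunit interface, Rpl4, whose long loop lines the tunnel, had 365, 388 and 381 FPKM with BSA, 507, 530 and 537 with PA and 384, 413 and 396 with PA+C3G. Rpl24, which reaches over to the small subunit, had 603, 679 and 656, 868, 904 and 913 and 666, 684 and 674 FPKM in the same order of groups. Both stood clear of every other library with PA, by 0.50 ± 0.04 (adjusted p = 6.69e-06) and 0.50 ± 0.05 (adjusted p = 1.55e-05). Rpl13a, known also for its part in translational silencing by interferon, had 98.9, 104 and 105 FPKM with BSA, 133, 139 and 150 with PA and 108, 109 and 105 with PA+C3G, and rose by 0.48 ± 0.05 on the log2 scale with PA (adjusted p = 2.37e-05). Rpl12, at the base of the stalk, had 397, 462 and 414, 592, 628 and 638 and 487, 480 and 493 FPKM, and its groups did not overlap. Its rise of 0.57 ± 0.06 (adjusted p = 2.19e-05) was the second of the 60S entries called higher by size, after Rpl10. Rpl3, a core protein of the peptidyl transferase centre, rose by less. Its FPKM were 219, 225 and 227 with BSA, 240, 256 and 243 with PA and 192, 203 and 205 with PA+C3G, and the rise with PA was 0.17 ± 0.04 (adjusted p = 0.00615).

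Rpl10a (ENSRNOG00000000505), whose protein forms the mobile L1 stalk that releases spent tRNA, did not follow the set. Its FPKM were 356, 413 and 380 with BSA, 350, 373 and 380 with PA and 346, 340 and 324 with PA+C3G, and the PA libraries lay within or below the control. Its log2 fold change with PA was -0.04 ± 0.06 (adjusted p = 0.643), and -0.09 in PA+C3G against PA (adjusted p = 0.31), where it passed with TPM scaling alone.

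In the small subunit, Rps3, at the mRNA entry, had 408, 443 and 447 FPKM with BSA, 566, 620 and 625 with PA and 460, 464 and 465 with PA+C3G. All PA+C3G libraries lay above all BSA libraries by a small step, and all PA libraries above both. It rose by 0.51 ± 0.05 with PA (adjusted p = 2.11e-05). Rps6, the protein that S6 kinase phosphorylates downstream of mTORC1, had 211, 261 and 243 FPKM with BSA, 303, 332 and 342 with PA and 254, 247 and 247 with PA+C3G. The control and PA+C3G overlapped, and the rise with PA was 0.47 ± 0.07 (adjusted p = 4.99e-04). Rps27, a zinc finger protein of the subunit surface, had 471, 567 and 503, 703, 811 and 812 and 598, 627 and 550 FPKM and the highest log2 fold change of any 40S entry called, 0.62 ± 0.08 (adjusted p = 1.72e-04). Rps25, needed for initiation at some internal ribosome entry sites, had 98.7, 111 and 111, 130, 131 and 142 and 102, 106 and 106 FPKM, a rise of 0.36 ± 0.06 with PA (adjusted p = 6.35e-04).

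Rps24, Rps2, Rps27l and Rps9 of the small subunit did not pass the test with PA. Rps24, a protein whose mutation causes Diamond-Blackfan anaemia, had 575, 647 and 600 FPKM with BSA, 612, 623 and 629 with PA and 580, 574 and 579 with PA+C3G, and its log2 fold change with PA was 0.06 ± 0.04 (adjusted p = 0.298), which of the alternatives run passed only without BSA replicate 2. Rps2, at the mRNA entry beside Rps3, had 849, 879 and 768 FPKM with BSA, 863, 853 and 914 with PA and 732, 710 and 721 with PA+C3G. Its PA+C3G libraries were below all others. The log2 fold change was 0.10 ± 0.05 with PA (adjusted p = 0.125) and -0.25 ± 0.05 in PA+C3G against PA (adjusted p = 0.00839). Rps27l, a paralog of Rps27 that p53 induces, had 32.8, 33.6 and 31.9 FPKM with BSA, 33.4, 27.9 and 32.9 with PA and 32.4, 26.4 and 32.5 with PA+C3G, with all groups overlapping. Its log2 fold change with PA was -0.04 ± 0.10 (adjusted p = 0.789). Rps9, a protein of the decoding side, had 99.6, 107 and 116, 105, 125 and 112 and 102, 101 and 103 FPKM and a value of 0.11 ± 0.07 (adjusted p = 0.209).

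**Figure D3:**
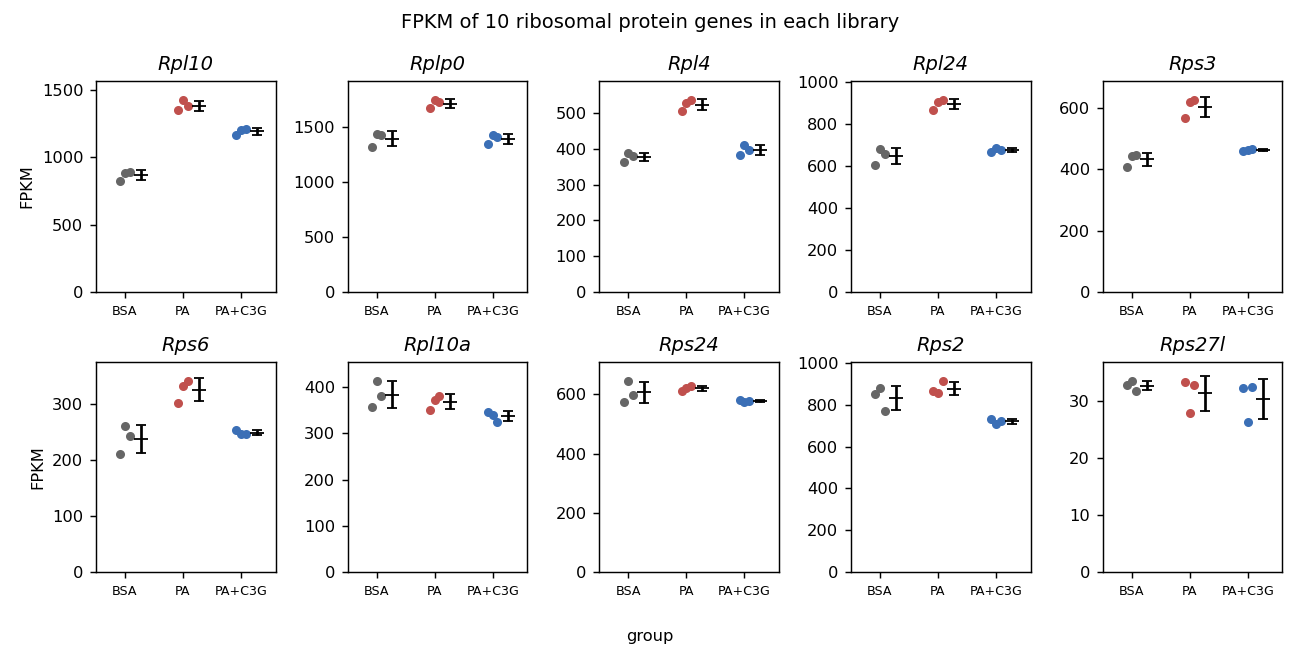
FPKM (y axis, from 0) of 10 ribosomal protein genes in the BSA, PA and PA+C3G libraries (x axis); points are libraries, and bars beside them the mean ± SD of 3. Rpl10, Rplp0, Rpl4, Rpl24, Rps3 and Rps6 are highest in the PA libraries, while Rpl10a, Rps24, Rps2 and Rps27l show overlapping BSA and PA libraries.

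In PA+C3G against PA, the comparison that asks what C3G changes in cells given PA, 52 of the 81 entries fell and none rose (edgeR, adjusted p under 0.05). Of all tested genes 10.2% were called lower and 11.1% higher, against 64.2% and 0 of the ribosomal protein entries. The falls ran from -0.39 to -0.16 on the log2 scale. The median over the 81 was -0.25, a fold of 0.839. Calls over all tested genes reached an unadjusted p of 0.0106. At an unadjusted p under 0.05, 63 entries were lower and none higher, and at an adjusted p under 0.01, 35 were lower. DESeq2 and limma called none higher. For 69 entries the FPKM of the PA+C3G libraries lay below all PA libraries, as for 24.0% of all genes. Scaling the counts to summed TPM in place of the trimmed mean called 67 entries lower and none higher, with 19.5% of all genes lower and 5.98% higher. Of the 60S entries 31 of 47 fell and of the 40S entries 21 of 34, with medians of -0.26 and -0.24. This comparison and the one before it share the PA libraries, which enter them on opposite sides, so that their values are given side by side and not as separate evidence.

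Several of the genes that rose with PA were among those with the lowest p in PA+C3G against PA. Rpl4, the tunnel protein, had -0.36 ± 0.04 (adjusted p = 4.67e-04) and Rpl24 -0.37 ± 0.05 (adjusted p = 7.44e-04). Rpl13a had -0.35 ± 0.05 (adjusted p = 0.00113) and Rps3 -0.35 ± 0.05 (adjusted p = 0.00158). Rps18, a protein of the head of the small subunit, differed from these in FPKM, with 244, 261 and 241 with BSA, 278, 285 and 293 with PA and 227, 223 and 230 with PA+C3G. In FPKM the last group lay below the control as well. Its log2 fold changes were 0.23 ± 0.04 with PA (adjusted p = 9.45e-04) and -0.30 ± 0.04 in PA+C3G against PA (adjusted p = 0.00103). In PA+C3G against BSA its value was -0.07, which did not pass the test. Rpsa, also known as the laminin receptor, had 436, 470 and 449 FPKM with BSA, 475, 513 and 511 with PA and 386, 404 and 406 with PA+C3G. Its PA+C3G libraries, like those of Rpl3, were below every control library, with -0.29 ± 0.04 against PA (adjusted p = 0.00211) and -0.12 ± 0.04 against BSA (adjusted p = 0.0607). Rpl41, a peptide of the subunit interface and the smallest ribosomal protein, had 786, 876 and 849 FPKM with BSA, 917, 929 and 957 with PA and 936, 888 and 868 with PA+C3G. The PA and PA+C3G libraries overlapped, and their log2 difference was -0.02 ± 0.05 (adjusted p = 0.8).

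In PA+C3G against BSA, which asks how far cells given both agents stood from the control, 20 of the 81 entries were higher and 1 was lower (edgeR, adjusted p under 0.05). Of all tested genes 19.0% were called higher and 17.9% lower, so that the 24.7% of entries called higher was near the background and the 1.23% called lower was under it. The median log2 fold change was 0.10, or 1.07-fold, and 65 of the 81 values were positive, as for 50.8% of all genes. This count was the least settled of the 3. Without BSA replicate 1, which had the lowest ribosomal protein share of its group, 6 entries were called higher, without BSA replicate 3 there were 10, and without PA+C3G replicate 1, 2 or 3 there were 9, 8 and 11. Scaling to summed TPM gave 7 higher and 6 lower, with 14.6% and 23.5% of all genes, and limma on FPKM gave 6 and 6. In FPKM, the PA+C3G libraries lay above all BSA libraries for 11 entries (19.2% of all genes) and below them for 7 (31.1%).

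Rpl10 had the lowest p here too, at 0.52 ± 0.04 on the log2 scale (adjusted p = 8.68e-06), and its PA+C3G libraries were above every control library. Rpl23, an interface protein that also binds Mdm2, had 524, 586 and 544 FPKM with BSA, 726, 748 and 765 with PA and 624, 641 and 602 with PA+C3G, which was 0.24 ± 0.05 above the control (adjusted p = 0.00365). Rpl36a, near the exit site of tRNA, had 165, 185 and 173, 230, 249 and 246 and 191, 204 and 199 FPKM and 0.25 ± 0.05 (adjusted p = 0.00512). Both kept PA+C3G above BSA without overlap. Rpl12 had 0.26 ± 0.06 (adjusted p = 0.00522), Rplp1 0.24 ± 0.05 (adjusted p = 0.00545) and Rps28, at the mRNA exit, 0.25 ± 0.07 (adjusted p = 0.0201). The call on Rps28 was lost with limma and without BSA replicate 1, PA+C3G replicate 1 or PA+C3G replicate 2. The entry called lower was Rps2, at -0.15 ± 0.05 (adjusted p = 0.0455). Its call was lost without the filter on low values, in a fit of these 2 groups alone, and when any library other than BSA replicate 3 or PA replicate 1 was left out. Rplp0, Rpl5 and Rpl11 did not pass the test, with 0.06 ± 0.04 (adjusted p = 0.297), 0.13 ± 0.05 (adjusted p = 0.0874) and 0.04 ± 0.04 (adjusted p = 0.453).

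**Figure D4:**
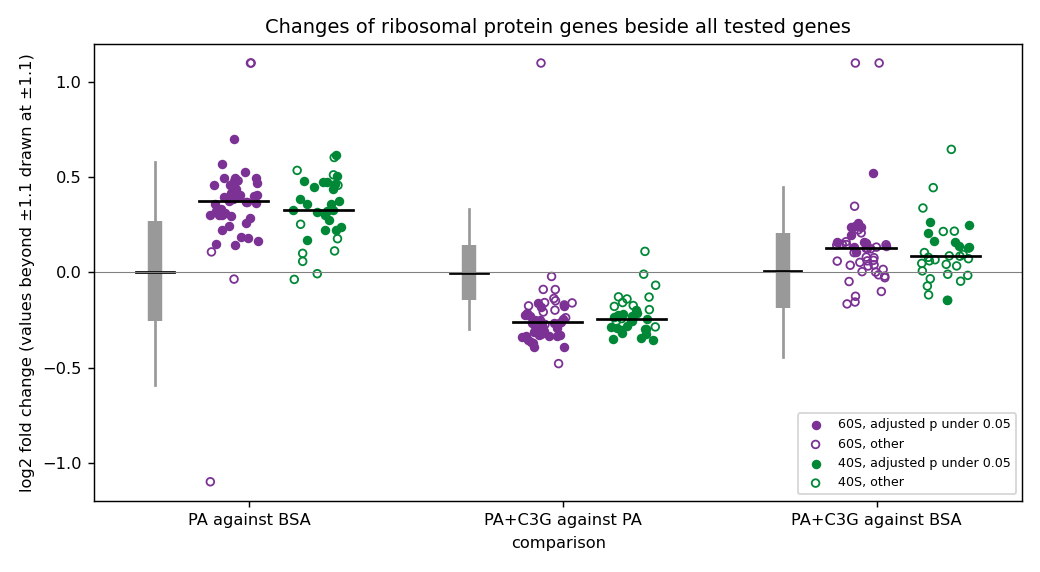
Log2 fold change (y axis) of the 47 tested 60S entries (purple) and 33 of the 34 tested 40S entries (green) in the 3 comparisons (x axis). Points are filled where the adjusted p is under 0.05 and drawn at ±1.1 where beyond it, with black lines at the medians of the entries drawn. Grey bars give the 25th to 75th percentile of all 12958 tested genes, grey lines the 10th to 90th and black ticks their median. The entries lie mostly above 0 with PA (median of all tested 60S and 40S entries 0.38 and 0.34) and mostly below it in PA+C3G against PA (-0.26 and -0.24).

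Since most entries moved in a common direction, each was also tested against the set, with every library scaled to the geometric mean of the 81 entries. The 81 include the entries set apart below as possible copies, some of which differed several-fold within groups. How far these moved the scale of single libraries was not tested. In PA against BSA the SE of Rpl10 was 0.066 in this fit and 0.040 in the first. That of Rpl10a was 0.060 and 0.058. In PA against BSA, 3 entries were called above the set (Rpl10, Rps27 and Rpl12) and 11 below it, where 6.97% of all genes were above and 56.2% below. The number above depended on the scaling, since with the libraries scaled to the median of the 81 entries in place of their geometric mean, 16 were above and 14 below. Rpl10 stood 0.33 ± 0.07 above on the log2 scale (adjusted p = 0.00119), Rps27 0.25 ± 0.07 (adjusted p = 0.0077) and Rpl12 0.20 ± 0.07 (adjusted p = 0.0216). The 11 below were Rpl10a, Rps24, Rps2, Rpl27, Rps9, Rps27l, Rpl36, Rpl41, Rpsa, Rpl3 and Rps21. Rpl10a was at -0.40 ± 0.06 (adjusted p = 1.80e-04), Rps24 at -0.31 ± 0.06 (adjusted p = 0.00136) and Rps2 at -0.27 ± 0.08 (adjusted p = 0.0119). The number below was 7 without BSA replicate 1, 6 without BSA replicate 3, 4 without PA replicate 1 and 3 without PA replicate 2, and the number above was 5 without BSA replicate 2 or PA+C3G replicate 3. The call on Rpl12 was lost without BSA replicate 3, PA replicate 2 or PA replicate 3, and that on Rps2 without PA replicate 2.

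In PA+C3G against PA, 1 entry, Rpl41, was above the set at 0.20 ± 0.06 (adjusted p = 0.0229), and none was below it, where 34.5% of all genes were above and 1.34% below. At an unadjusted p under 0.05, 4 entries were above and 2 below, and none was called above without PA replicate 1 or PA replicate 2. Without PA+C3G replicate 3 the call on Rpl41 was also lost, and 2 entries were called below. Scaled to the median, 4 were above and 2 below. In PA+C3G against BSA, Rpl10 was above the set by 0.38 ± 0.07 (adjusted p = 0.00148), and 7 entries were below it: Rpl10a, Rpsa, Rpl29, Rps2, Rpl3, Rps18 and Rpl14. Of all genes 7.79% were above and 25.3% below. Scaled to the median, 6 entries were above and 6 below. Rpl10a was at -0.27 ± 0.06 (adjusted p = 0.00639) and Rpl29, a small protein of the large subunit, at -0.30 ± 0.08 (adjusted p = 0.0125). The number below was 3 without BSA replicate 1, 2 without PA+C3G replicate 1, 3 without PA+C3G replicate 2 and 11 without PA+C3G replicate 3.

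**Figure D5:**
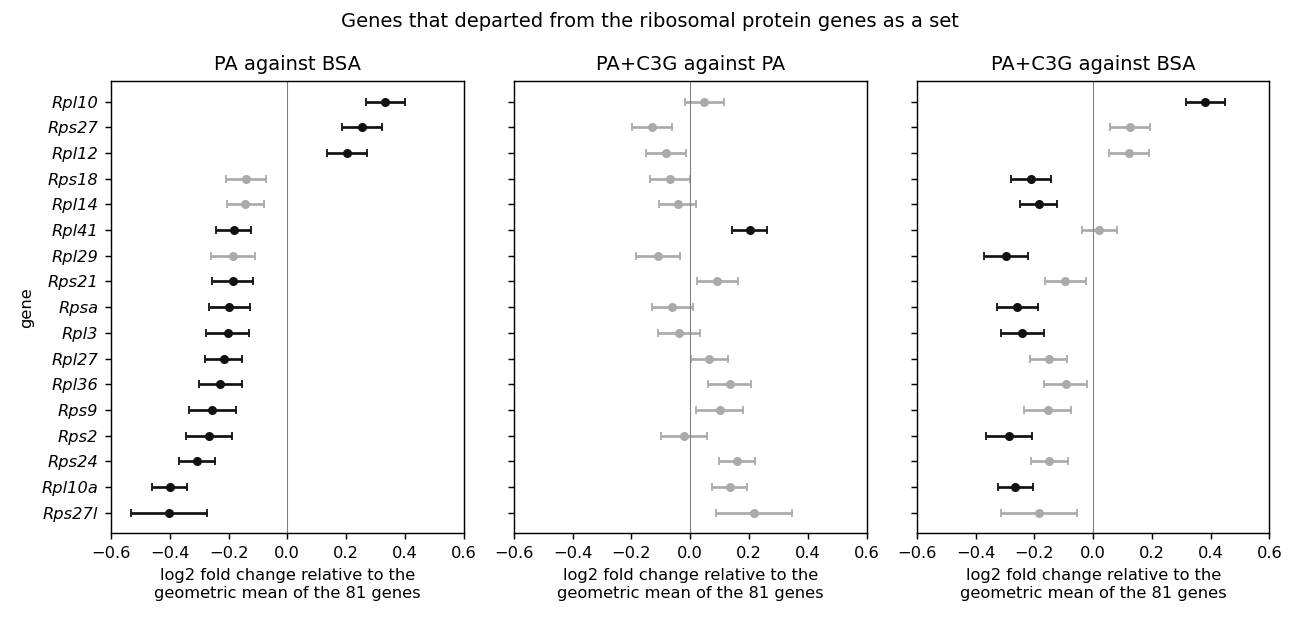
Log2 fold change ± SE relative to the geometric mean of the 81 tested entries (x axis) in the 3 comparisons for the 17 genes (y axis) called apart from the set in at least 1 of them; black marks an adjusted p under 0.05 and grey the rest. Rpl10 is to the right of 0 in PA against BSA and in PA+C3G against BSA, and Rpl10a to the left.

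Ribosomal protein genes have many retrocopies, processed genes of near-identical sequence, between which reads can be divided in different ways. Here 16 entries were set apart for this reason as possible copies. Their symbols stood on 2 entries or on another chromosome than the RefSeq gene of that symbol. No sequences were compared, and the values of these entries are uncertain. Rpl35a on chromosome 5 had 25.8, 42.3 and 312 FPKM with BSA, 42.0, 29.8 and 37.0 with PA and 272, 163 and 26.7 with PA+C3G. The higher of the 2 Rpl35al1 entries on chromosome 12 had 2.90, 12.8 and 2.76, 34.1, 27.4 and 3.49 and 23.8, 29.9 and 3.07 FPKM. Libraries of a single group thus differed several-fold, and log2 fold changes with PA of -1.78 ± 0.96 and 1.85 ± 0.98 had adjusted p of 0.151 and 0.144. Rps27a, a fusion of ubiquitin with a 40S protein, stood on chromosomes 5 and 14 at a mean FPKM of 508 and 506, and neither entry passed a test. Of the 15 such entries tested, 7 rose with PA, 4 fell in PA+C3G against PA and 1 was higher in PA+C3G than in BSA. Of the other 66, 57 rose with PA, 48 fell in PA+C3G against PA, and 19 rose and 1 fell relative to BSA when PA and C3G were both given. Their medians were 0.36, -0.26 and 0.10, close to those of all 81. In the PA+C3G group a single library also stood out in Rps12, a 40S protein, with 140, 58.5 and 54.5 FPKM beside 50.5, 62.3 and 56.5 with BSA. Its log2 fold change was 0.54 in PA against BSA and 0.11 in PA+C3G against PA, and Rps12 passed no test.

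Several paralogs known from other tissues were low. Rpl3l, the form of Rpl3 in heart and skeletal muscle, was listed at 0.200, 0.00 and 0.268 FPKM with BSA, 0.997, 1.75 and 1.53 with PA and 1.06, 0.832 and 1.65 with PA+C3G. All PA and PA+C3G libraries were above the control, but the mean over all libraries was under the filter, and no test was made. Rpl39l, the testis form of the tunnel protein Rpl39, was at or below 0.188 FPKM in every library. Rpl22l1, a paralog of Rpl22, was expressed, with 82.0, 74.7 and 87.8 FPKM with BSA, 101, 102 and 118 with PA and 90.4, 84.9 and 95.4 with PA+C3G. It rose by 0.42 ± 0.08 with PA (adjusted p = 0.00152), and its difference between PA+C3G and PA, -0.21 ± 0.08, did not pass (adjusted p = 0.089), though it did with DESeq2 and with TPM scaling.

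Counts for other genes of translation are read against the shares of all tested genes called higher and lower, which were 25.8% and 25.2% with PA, 11.1% and 10.2% in PA+C3G against PA, and 19.0% and 17.9% in PA+C3G against BSA. Of 20 tested genes whose mRNAs are known to carry a TOP motif but encode other proteins, mainly translation factors, 15 rose and 1 fell with PA, none rose and 15 fell in PA+C3G against PA, and 4 rose and 4 fell in PA+C3G against BSA. Their medians were 0.31, -0.27 and 0.03, beside 0.37, -0.25 and 0.10 for the ribosomal protein entries. Eef2, the translocase of elongation, had 1195, 1225 and 1189 FPKM with BSA, 1941, 1956 and 1961 with PA and 1393, 1484 and 1415 with PA+C3G, groups without overlap, and log2 fold changes of 0.72 ± 0.03 with PA (adjusted p = 1.18e-07) and -0.41 ± 0.03 in PA+C3G against PA (adjusted p = 8.03e-05). Pabpc1, the cytoplasmic poly(A)-binding protein, had 0.52 and -0.34, and Eif4b, an activator of the initiation helicase, 0.43 and -0.38, all called. The gene that fell with PA was Nap1l1, a histone chaperone, at -0.12.

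Of 16 tested genes of the mTORC1 pathway and of TOP mRNA control, 5 rose and 3 fell with PA, 2 rose and 3 fell in PA+C3G against PA, and 4 rose and 3 fell in PA+C3G against BSA, counts near those shares of all genes. Ddit4, an inhibitor of mTORC1, was 0.60 higher with PA (adjusted p = 2.72e-05), and Larp1 itself was at 0.08 (adjusted p = 0.141). Ddit4 had 0.08 in PA+C3G against PA (adjusted p = 0.404) and 0.68 in PA+C3G against BSA (adjusted p = 2.25e-05). Eif4ebp2 rose by 0.35 with PA (adjusted p = 7.67e-05) and Tsc1 by 0.47 (adjusted p = 2.11e-04), while 3 genes of the list fell. In PA+C3G against PA these 2 genes had -0.42 (adjusted p = 2.74e-04) and -0.27 (adjusted p = 0.0161), while 2 genes of the list rose. Myc, which drives transcription of ribosomal genes, had 37.4, 43.0 and 38.8 FPKM with BSA, 44.0, 41.5 and 44.9 with PA and 29.2, 25.5 and 26.2 with PA+C3G, and its log2 fold change was -0.65 ± 0.07 in PA+C3G against PA (adjusted p = 3.29e-04). Of 11 factors that bind, rescue or survey ribosomes, 6 rose and 4 fell with PA, 2 rose and 4 fell in PA+C3G against PA, and 1 rose and 3 fell in PA+C3G against BSA. As shares of the 11 these were 54.5% and 36.4%, 18.2% and 36.4%, and 9.09% and 27.3%. Serbp1, a protein of idle ribosomes, had -0.43 with PA (adjusted p = 2.38e-06), and Zfp598, a sensor of collided ribosomes, 0.35 (adjusted p = 2.87e-05).

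The 74 tested mitochondrial ribosomal protein genes, a separate ribosome inside the organelle, showed 9 rises and 19 falls with PA, 2 and 3 in PA+C3G against PA, and 3 and 7 in PA+C3G against BSA, with medians of -0.07, 0.03 and -0.01. Of 73 genes of ribosome biogenesis, 11 rose and 22 fell with PA, 7 rose and 8 fell in PA+C3G against PA, and 4 rose and 21 fell in PA+C3G against BSA, with medians of -0.06, -0.04 and -0.07. Fbl, the methyltransferase of ribosomal RNA, had -0.45 with PA (adjusted p = 4.15e-06), and Nop56, its partner in the same particles, -0.55 (adjusted p = 4.34e-06). Wdr75 and Nxt2 of the same list had lower p, with -0.70 (adjusted p = 1.46e-06) and 0.77 (adjusted p = 2.84e-06). In PA+C3G against PA, Nxt2 had -0.41 (adjusted p = 0.00121), while Wdr75, Fbl and Nop56 had 0.18, 0.14 and 0.27. The rise with PA of the cytosolic ribosomal protein genes thus stood beside shares of 12.2% and 15.1% called higher in these lists, both under the 25.8% of all genes. A further 36 ribosome entries of the table without such names gave 13 rises with PA, 7 falls in PA+C3G against PA and 6 rises in PA+C3G against BSA. These were 36.1%, 19.4% and 16.7% of the 36, beside 25.8%, 10.2% and 19.0% of all genes.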

How the data were processed

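Poly(A) RNA of 9 libraries was sequenced as stranded paired ends. Per the submitters' processing notes the authors used cutadapt 1.9, HISAT2 2.0.4, StringTie 1.3.4d, DESeq2 and edgeR; the genome build is not given in the sources used here. The authors deposited a table of 20645 genes with estimated counts and FPKM per library. Estimated counts of the 12958 genes whose FPKM averaged at least 1 over the libraries were tested with edgeR 4.0.16 (R 4.3.3; trimmed-mean scaling, quasi-likelihood fit of the 3 groups together, Benjamini-Hochberg adjustment), after tests on simulated data; StringTie counts at low values pile up at multiples of 4. FPKM gave levels, shares and overlaps. A second fit scaled libraries to the geometric mean of the 81 tested entries. Alternatives were DESeq2 1.42.0, limma 3.58.1 on log2(FPKM + 1) and log2(FPKM + 0.1), other scalings and filters, counts divided by 4, left-out libraries and a replicate block. A further alternative, chosen after seeing the data, left out the entries set apart as possible copies.

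The genes and lists were chosen with earlier results of these data known. Named were up to 8 entries per comparison and direction by lowest p, entries with textbook roles, the highest and lowest by FPKM, up to 5 apart from the set per comparison and direction, and up to 4 per other list. Rps12, Rpl35a, Rpl35al1, Nap1l1, Larp1 and the full lists of entries apart from the set were named after their values were seen. An entry that this rule named is not reported here, apart from its part in counts and sums. Start regions came from RefSeq (GRCr8). Groups came from the labels.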

Additional observations from a re-analysis of the deposited data

How the results depend on the processing

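The rises with PA and the falls in PA+C3G against PA were stable in number. Leaving out each library in turn gave 59 to 65 entries higher with PA (64 with all libraries) and 42 to 55 lower in PA+C3G against PA (52 with all). The medians ran from 0.32 to 0.38, from -0.28 to -0.24 and, for PA+C3G against BSA, from 0.067 to 0.13. For PA+C3G against BSA the entries called higher numbered 6 (without BSA replicate 1) to 23 (without BSA replicate 2), and those called lower 0 to 2. Against the set, the numbers above and below were 2 to 5 and 3 to 14 with PA, 0 to 2 and 0 to 2 in PA+C3G against PA, and 1 and 2 to 11 in PA+C3G against BSA. The cause was not tested.

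In PA+C3G against BSA, scaling to summed TPM gave 7 higher and 6 lower, limma 6 and 6 with either pseudocount, and 4 were lower with DESeq2, 3 with a replicate block, 2 each with median-ratio size factors, a minimum mean FPKM of 5 and counts divided by 4, and 0 without a filter or with only the groups compared. The median was 0.045 with TPM scaling and 0.043 with limma, and in PA+C3G against PA -0.34 with TPM scaling. Scaled to the median of the 81 entries, 16 were above the set with PA, 4 above and 2 below in PA+C3G against PA, and 6 above in PA+C3G against BSA. As a share of estimated counts the entries made up 2.51%, 3.14% and 2.56% in BSA, PA and PA+C3G, and as a share of FPKM without Ins1 and Ins2 6.12% in BSA and 6.32% in PA+C3G.

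Of 1638 values of named genes under alternatives, 1531 kept direction and side of the threshold, 70 lost the call, 22 gained it and 15 turned in sign, none of these with a call. Turned in PA+C3G against BSA were Rpl11 (-0.019 with TPM scaling, -0.021 with limma at either pseudocount) and Rps25 (-0.025 with TPM scaling, -0.025 and -0.026 with limma). Without 1 library turned Rps25 in PA+C3G against BSA (from -0.031 to 0.053), Rpl10a with PA (from -0.094 to 0.013), Rps24 in PA+C3G against BSA (from -0.058 to 0.028), Rpl41 in PA+C3G against PA (from -0.056 to 0.0014) and Rps27l with PA (from -0.089 to 0.038), in PA+C3G against PA (from -0.084 to 0.082) and against BSA (from -0.10 to 0.039).

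Deviations of libraries with the same number correlated at -0.0473 to 0.105 across all genes. Across the 81 entries they correlated at 0.609 to 0.766 in PA+C3G against PA. The values were -0.519 to 0.786 in PA against BSA and -0.759 to 0.682 in PA+C3G against BSA. Some of the 81 entries varied several-fold within groups, so these values cannot decide whether the numbers pair the libraries. Gcg and Pcsk2 kept the same order of replicates in every group, while Ins1 and Ins2 did not. The main fit did not take the numbers to pair the libraries. Across all genes every library correlated best with its own number in PA+C3G against PA and not in the others. With the replicate block, 67 entries were higher with PA, 57 lower in PA+C3G against PA and 27 higher in PA+C3G against BSA; the calls of Rpl5 (higher, PA+C3G against BSA) and Rpl22l1 (lower, PA+C3G against PA) were gained and that of Rps2 (lower, PA+C3G against BSA) was lost. Low values limit Rpl3l, Rpl39l and Rps10l1, and reads shared between copies may limit the entries set apart as possible copies.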
